A study of Rattus norvegicus with 15 samples.

Results

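Genes of the basement membrane and its binding partners, 10 in all, were followed in cultured rat aortic smooth muscle cells (SMC). They were Nid1, Nid2, Lama4, Lama5, Lamb1, Lamb2, Lamc1, Hspg2, Agrn and Sparc, out of the 32623 gene entries in the deposited expression table. They were chosen by name, with earlier results of these data known. The table carries 9 of them under these symbols. Hspg2, perlecan, was found as the entry AABR07073181.1, which RefSeq gives as an older name of that gene. A gene was tested where it reached 1 TPM, a length-normalized measure of transcript abundance, in at least 3 of the 15 libraries, which 12207 entries did. All 10 genes passed, Lama4 only through 3 libraries.

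RNA-seq covered 4 groups, and the study set out to follow gene expression after H3K4me2, a histone mark of active regulatory DNA, was removed. The Myocd-LSD1 line (4 libraries) carries a fusion of myocardin, the partner of serum response factor in switching on contractile genes, with the histone demethylase LSD1. The Myocd-LSD1NF line (4 libraries) is named after the same fusion, and the sources used here do not explain the letters NF. The PDGF-BB group (3 libraries) was wild-type SMC given human recombinant platelet-derived growth factor BB, a mitogen for SMC, at 30 ng/ml during the last 24 h, following 48 h of starvation. The control group (4 libraries) was wild-type SMC with no treatment. All 4 groups were starved in serum-free and insulin-free medium, for 72 h in all before harvest. How the lines were made, from how many clones, and whether the control carries an empty vector was not stated in the sources used here. What the fusion did and what else sets a line apart from control SMC therefore cannot be told apart.

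A basement membrane is a thin sheet of extracellular matrix, and in the aorta each SMC is wrapped in one. Laminins are its first layer: trimers of an alpha, a beta and a gamma chain that bind to cell receptors and assemble into a network. Nidogens and the heparan sulfate proteoglycans perlecan and agrin tie this network to that of type IV collagen and to the cell surface, and nidogen binds the gamma 1 chain of laminin.

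TPM correct for gene length and sum alike in every library, so levels can be compared between genes, but they keep no sequencing depth and the depth behind each value is unknown. Levels below are TPM, with means ± SD over libraries (n = 4, and n = 3 for PDGF-BB). Differences are log2 fold changes ± SE of TPM with a pseudocount of 1, so changes of low genes are understated. Adjusted p-values are from limma, two-sided, and a gene was called at an adjusted p under 0.05. Whether libraries of a group are separate cultures is not in the labels, and p-values then measure only spread between these libraries, which may be technical. Within a group, libraries correlated at 0.961 to 0.988 on the log scale over the tested genes. All 9 SMC contractile markers were detected in the controls, at a summed level of 17622 to 21967 TPM. Their summed level was 3445 to 6107 TPM in Myocd-LSD1, 9532 to 20498 TPM in Myocd-LSD1NF and 5343 to 7175 TPM in PDGF-BB. Myocd, the myocardin gene and 1 of these markers, was listed at 0.15 to 0.56 TPM in Myocd-LSD1. It stood at 18.3 to 49.6 TPM in Myocd-LSD1NF, 14.8 to 23.1 TPM in PDGF-BB and 26.2 to 30.6 TPM in control. How reads of the fusion were counted was not stated in the sources used here. The endothelial genes Cdh5, Kdr, Vwf, Emcn and Cldn5 were at or near 0 in every group. Of 11 matched endothelial markers, 3 reached 1 TPM in a library of each group, and the list summed to 45.9 to 63.1 TPM in Myocd-LSD1, 22.8 to 33.95 TPM in Myocd-LSD1NF, 43.1 to 48.6 TPM in PDGF-BB and 23.2 to 28.8 TPM in control, most of it from Egfl7. The fibroblast markers summed to 163 to 348 TPM in Myocd-LSD1, 100 to 245 TPM in Myocd-LSD1NF, 87.6 to 189 TPM in PDGF-BB and 120 to 228 TPM in control. Most of this came from Col14a1. Of 7 tested fibroblast markers, Scara5 and Pi16 were called higher and Lum lower in Myocd-LSD1 against control, beside 16.9% and 15.4% of all tested genes. In bulk RNA, fewer cells of a type and less RNA per cell cannot be told apart.

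Some libraries stood apart. Myocd-LSD1NF library 4 was the lowest of its group for Nid1, Nid2, Lama4 and Lamb1, and its contractile markers summed to 9532 TPM, against 17295 to 20498 TPM in the other Myocd-LSD1NF libraries. Myocd-LSD1 libraries 2 and 4 were more like each other than like libraries 1 and 3, and their summed epithelial and mesothelial markers stood at 252 and 173 TPM, against 116 and 58.0 TPM in libraries 1 and 3. That sum is carried mainly by Msln and Krt8, while Upk3b of the same list was lower than in control and Wt1 was listed at 0. In the controls the sum lay between 33.5 and 56.1 TPM. Some of the results that rest on these libraries are also given without them, but not all, and the further gene lists are given only with them.

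The start regions of Nid1, Lamb1 and Sparc are printed, as genes with called differences and a matched RefSeq window. That of Lamc1, the laminin gene of highest mean TPM in every group, is added. All are printed to show how they differ in base composition. They hold 250 bases before the RefSeq start of Nid1, Lamb1, Lamc1 and Sparc (RefSeq, GRCr8, 5′ to 3′ on the gene's strand, capitals marking GC boxes, GGGCGG or its complement CCGCCC, overlapping copies counted).
Nid1, chr17:93069036-93069285, plus strand: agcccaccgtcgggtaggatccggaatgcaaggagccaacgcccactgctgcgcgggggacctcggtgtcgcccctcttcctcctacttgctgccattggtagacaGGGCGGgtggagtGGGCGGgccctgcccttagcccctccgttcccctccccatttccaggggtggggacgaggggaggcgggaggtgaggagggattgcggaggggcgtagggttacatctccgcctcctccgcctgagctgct
Lamb1, chr6:53562846-53563095, plus strand: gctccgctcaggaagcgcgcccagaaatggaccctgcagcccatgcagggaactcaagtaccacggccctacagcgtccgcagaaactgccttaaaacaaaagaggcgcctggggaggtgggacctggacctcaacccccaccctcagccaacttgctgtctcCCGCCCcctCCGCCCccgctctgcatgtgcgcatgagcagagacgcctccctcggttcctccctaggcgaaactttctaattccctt
Lamc1, chr13:68051987-68052236, minus strand: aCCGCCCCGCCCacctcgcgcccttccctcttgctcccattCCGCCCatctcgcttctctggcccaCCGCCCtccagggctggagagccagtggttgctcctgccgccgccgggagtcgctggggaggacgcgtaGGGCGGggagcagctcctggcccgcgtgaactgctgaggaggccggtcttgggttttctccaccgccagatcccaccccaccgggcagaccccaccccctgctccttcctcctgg
Sparc, chr10:40038817-40039066, minus strand: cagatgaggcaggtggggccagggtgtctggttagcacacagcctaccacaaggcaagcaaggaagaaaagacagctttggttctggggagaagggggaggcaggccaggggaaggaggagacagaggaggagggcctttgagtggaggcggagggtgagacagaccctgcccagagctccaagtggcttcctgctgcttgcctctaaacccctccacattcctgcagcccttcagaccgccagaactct
Nid1 and Lamb1 held 2 GC boxes each, Lamc1 held 5 and Sparc none. Of the matched windows not printed, Lama5 held 4, Hspg2 held 5, and Lama4 and Agrn held none. A GC box was present in 30.5% of 33469 RefSeq windows of this length. CpG pairs numbered 17 in Nid1, 14 in Lamb1 and 19 in Lamc1, but 2 in Sparc, beside a median of 5 over all windows. GC content was 68.0%, 62.0%, 71.2% and 60.0% in Nid1, Lamb1, Lamc1 and Sparc, beside a median of 51.2%. RefSeq windows were matched for 8 of the 10 genes, and not for Nid2 and Lamb2, which also had called differences. Among these 8, only Lama4 held a TATA box (TATAAA on either strand, in 12.9% of windows), and none held a CArG box, the motif of serum response factor (in 1.5% of windows). These are descriptions of letters in 1 window, and no binding was measured here.

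The 2 nidogens moved apart. Nid1, nidogen 1, was near 0 in every Myocd-LSD1 library and intermediate in most Myocd-LSD1NF and in PDGF-BB libraries. Nid2, nidogen 2, was not lower than control by the test in any group and was higher in PDGF-BB. Their levels are plotted by library for the 4 groups.

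**Figure D1:**
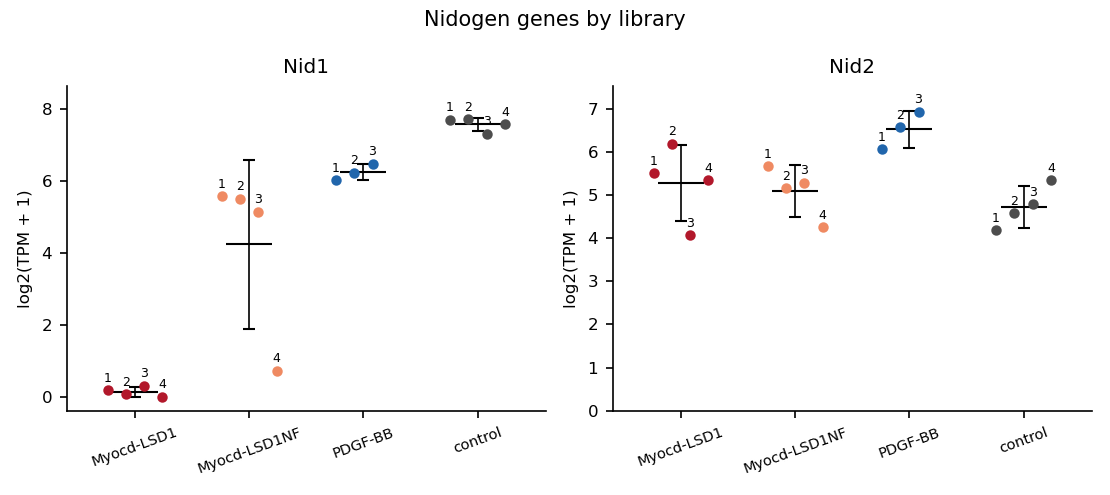
Levels of Nid1 and Nid2 as log2(TPM + 1) on the vertical axis, with 1 point per library, numbered as in the labels, in the 4 groups on the horizontal axis (bars, mean ± SD of the log2 values). Nid1 lies at or below 0.24 TPM in all 4 Myocd-LSD1 libraries and at 0.65 TPM in Myocd-LSD1NF library 4, while every control lies at 158 TPM or above. Nid2 lies above every control in all 3 PDGF-BB libraries.

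Nid1 stood at 0.14, 0.05 and 0.24 TPM in Myocd-LSD1 libraries 1 to 3 and was listed at 0 in library 4. It stood at 46.7, 44.5, 34.4 and 0.65 TPM in Myocd-LSD1NF, at 63.8, 74.05 and 88.0 TPM in PDGF-BB, and at 208, 208, 158 and 189 TPM in control. The ranges of the 4 groups did not overlap: every control was above every PDGF-BB library, every PDGF-BB library above every Myocd-LSD1NF library, and these above every Myocd-LSD1 library.

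Against control, Nid1 fell by 7.43 ± 0.76 on the log2 scale in Myocd-LSD1 (adjusted p = 3.83e-06). In Myocd-LSD1NF its log2 fold change against control was -3.34 ± 0.76 (adjusted p = 0.0320). Directly compared, Myocd-LSD1 was lower than Myocd-LSD1NF by a log2 fold change of -4.10 ± 0.76 (adjusted p = 0.000866). Without library 4 of Myocd-LSD1NF that log2 fold change of Nid1 was -5.27. In Myocd-LSD1NF against control it was then -2.17 and stayed called (adjusted p = 1.43e-06). The call was lost without any single control: without control library 1, 2, 3 or 4 the adjusted p was 0.0927, 0.0999, 0.0657 and 0.0585. It was also lost with a pseudocount of 0.1 (adjusted p = 0.0776), with no filter on low genes (0.166) and in a fit of those groups alone (0.145).

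In PDGF-BB, Nid1 averaged 75.3 ± 12.2 TPM, against 191 ± 23.6 TPM in control, with no overlap, and yet the fit over 4 groups did not call it (log2 fold change -1.33 ± 0.82, adjusted p = 0.242). The spread in that fit includes Myocd-LSD1NF library 4. Without that library the SE was 0.146 and the adjusted p was 2.96e-05, and in a fit of PDGF-BB and control alone they were 0.138 and 0.000307. Nid1 was lower in Myocd-LSD1 than in PDGF-BB by a log2 fold change of -6.10 ± 0.82 (adjusted p = 7.96e-05). Beside Nid1, the summed contractile markers of every Myocd-LSD1 and PDGF-BB library and of Myocd-LSD1NF libraries 1 and 4 lay below every control. Myocd-LSD1NF library 1 did so narrowly (17295 TPM against a lowest control of 17622 TPM). The sum is carried mainly by Acta2 and Tagln. Of the 9 markers, 8, 1 and 6 were called lower in Myocd-LSD1, Myocd-LSD1NF and PDGF-BB against control. The shares called lower over all tested genes were 15.4%, 1.74% and 8.5%. Des was called higher in Myocd-LSD1, at 5.51 ± 1.61 TPM, against 0.870 ± 0.544 TPM in control (log2 fold change 1.81 ± 0.23, adjusted p = 3.27e-05). The part of the contractile markers in these results was not tested.

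Nid2 stood at 44.5, 71.6, 15.8 and 39.5 TPM in Myocd-LSD1, at 49.99, 34.7, 37.9 and 18.0 TPM in Myocd-LSD1NF, at 65.5, 93.6 and 121 TPM in PDGF-BB, and at 17.25, 22.85, 26.5 and 39.3 TPM in control. All 3 PDGF-BB libraries were above all 4 controls, whereas both lines overlapped the controls. The order of the means was PDGF-BB, Myocd-LSD1, Myocd-LSD1NF and control, and each neighbouring pair in it overlapped.

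Nid2 averaged 93.2 ± 27.5 TPM in PDGF-BB, against 26.5 ± 9.36 TPM in control, a rise of 1.80 ± 0.43 on the log2 scale (adjusted p = 0.00667). Myocd-LSD1 differed from control by 0.55 ± 0.40 (adjusted p = 0.316) and Myocd-LSD1NF by 0.37 ± 0.40 (adjusted p = 0.710). Without Myocd-LSD1 library 3 the Myocd-LSD1 difference was 0.96 and was called (adjusted p = 0.0424). Without Myocd-LSD1 library 2 it was 0.25, and with 1 library left out the adjusted p reached 0.682. Myocd-LSD1 was below PDGF-BB by a log2 fold change of -1.24 ± 0.43 (adjusted p = 0.0388), although the groups overlapped. That call was lost without Myocd-LSD1 library 3 or 4 or PDGF-BB library 2 or 3 (adjusted p = 0.0901, 0.0657, 0.0990 and 0.145). It was also lost under median-of-ratios scaling, quantile normalization and the replicate block (adjusted p = 0.0701, 0.0557 and 0.0716), and with no filter, in the compared groups alone and with array weights (0.157, 0.0676 and 0.0751, the last at a log2 fold change of -0.80). RefSeq lists further loci named as like Nid2, and how reads shared with them were counted was not stated in the sources used here.

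The ratio of the nidogens was highest in control. Nid1 exceeded Nid2 4.81-fold to 12.1-fold in control libraries, and the ratio of Nid1 to Nid2 TPM was 0.730 to 0.973 in PDGF-BB. It was 0.909 to 1.28 in Myocd-LSD1NF libraries 1 to 3 and 0.0361 in library 4, and at most 0.0152 in Myocd-LSD1. The summed level of Nid1 and Nid2 averaged 43.0 ± 22.8 TPM in Myocd-LSD1 and 66.7 ± 33.6 TPM in Myocd-LSD1NF. It averaged 169 ± 39.6 TPM in PDGF-BB, against 217 ± 21.99 TPM in control. Set against Lamc1, whose product carries the nidogen binding site, the sum was 0.141 ± 0.0779 of the Lamc1 level in Myocd-LSD1 and 0.190 ± 0.1002 in Myocd-LSD1NF. It was 0.466 ± 0.0743 in PDGF-BB and 0.862 ± 0.181 in control. Every control ratio lay above every ratio of the other groups, the lowest control being library 4 at 0.592. These ratios carry no test.

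Counted over the 10 genes, few passed the test. In Myocd-LSD1 against control, 2 were called, Nid1 and Lamb1, both lower and neither overlapping. Of all tested genes 32.2% were called, 15.4% lower and 16.9% higher, and 30.5% did not overlap. In Myocd-LSD1NF against control Nid1 alone was called and alone did not overlap, beside 2.21% of all tested genes called (1.74% lower) and 9.95% without overlap. In Myocd-LSD1 against Myocd-LSD1NF the same 2 genes, Nid1 and Lamb1, were called lower, beside 31.8% of all tested genes (12.7% lower), and Nid1 alone did not overlap, beside 27%. In PDGF-BB against control, Nid2 was called higher and Lamb2 and Sparc lower, 3 of 10 beside 27.7% (19.2% higher and 8.5% lower), and 5 genes did not overlap, beside 41.4%. In Myocd-LSD1 against PDGF-BB, Lamb2 and Sparc were called higher and Nid1 and Nid2 lower, 4 of 10 beside 31.1% (10.6% higher and 20.5% lower), and 4 did not overlap, beside 36.9%. Apart from Myocd-LSD1NF against control, where the count is 1 gene, these counts lie near or under the background shares and are no result about the 10 genes as a group.

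The median log2 fold change of the 10 genes was -0.09 in Myocd-LSD1 against control, where the median of all tested genes was 0.03. It was 0.19 beside -0.05 in Myocd-LSD1NF against control and -0.40 beside 0.07 in Myocd-LSD1 against Myocd-LSD1NF. It was -0.43 beside 0.12 in PDGF-BB against control and -0.17 beside -0.10 in Myocd-LSD1 against PDGF-BB. Median-of-ratios scaling moved the PDGF-BB median of all tested genes to -0.01, and PDGF-BB differences on the deposited scale are to be read relative to the median of 0.12. The groups share controls and libraries, so the 5 comparisons are not independent.

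**Figure D2:**
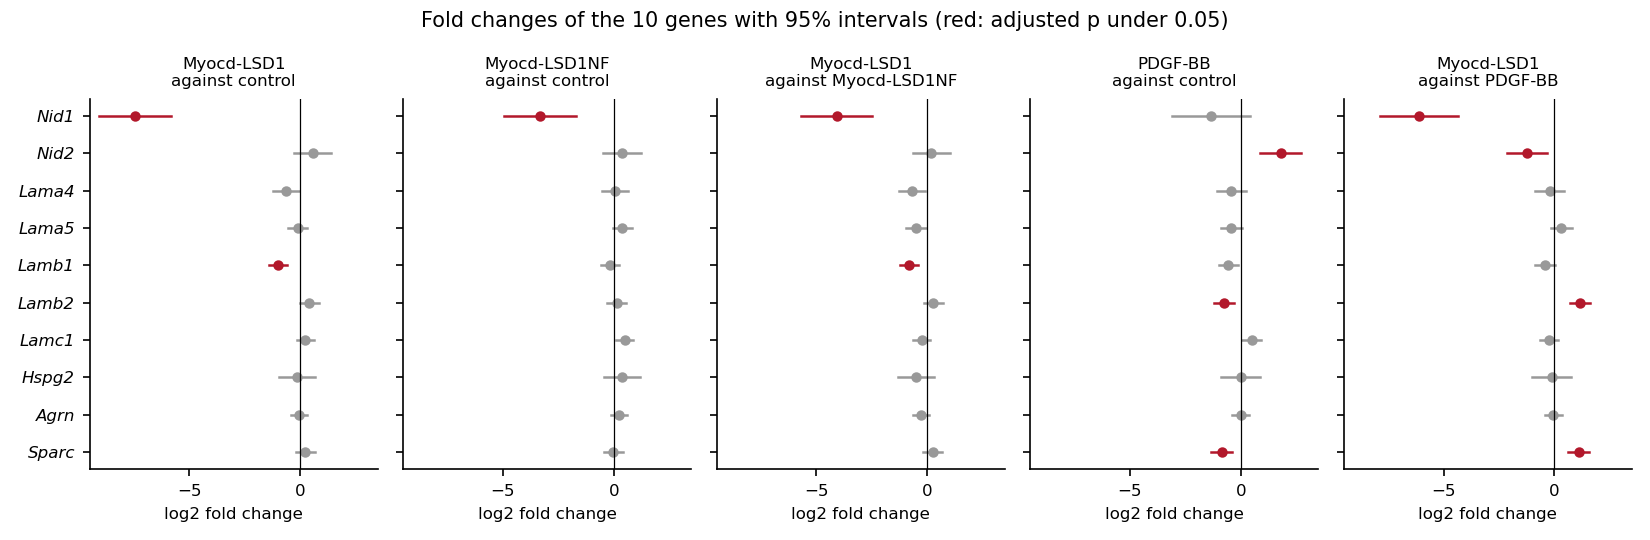
Log2 fold change on the log2(TPM + 1) scale (horizontal axis) of each of the 10 genes (rows) in the 5 comparisons (panels), with points for estimates, lines for 95% intervals and red for an adjusted p under 0.05. Nid1 lies farthest from 0 in 4 panels, at -7.43 in Myocd-LSD1 against control, while Agrn and Hspg2 intervals include 0 in every panel.

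Among the laminin chains, the gamma 1 and alpha 5 genes were expressed at 97.0 TPM or more in every library, and the called differences were those of the 2 beta chains. Lamb1, the beta 1 chain, stood at 136, 85.4, 157 and 88.8 TPM in Myocd-LSD1, at 235, 234, 202 and 143 TPM in Myocd-LSD1NF, at 142, 147 and 169 TPM in PDGF-BB, and at 221, 231, 207 and 247 TPM in control. All Myocd-LSD1 libraries and all PDGF-BB libraries were below all controls, and Myocd-LSD1NF overlapped the controls. Within Myocd-LSD1, libraries 2 and 4 were the low ones.

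Lamb1 averaged 117 ± 35.5 TPM in Myocd-LSD1, against 226 ± 16.6 TPM in control, a fall of 0.99 ± 0.19 on the log2 scale (adjusted p = 0.000996). Against the 203 ± 43.4 TPM of Myocd-LSD1NF it was lower in Myocd-LSD1 by a log2 fold change of -0.82 ± 0.19 (adjusted p = 0.00472). Without Myocd-LSD1 libraries 2 and 4 the difference from control was -0.62 and still called (adjusted p = 0.0198), and that from Myocd-LSD1NF was -0.44 and not called (adjusted p = 0.0806).

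Myocd-LSD1NF differed from control in Lamb1 by -0.18 ± 0.19 (adjusted p = 0.711). PDGF-BB, at 153 ± 14.2 TPM, differed from control by -0.57 ± 0.21 and missed the threshold (adjusted p = 0.0544). The PDGF-BB difference was called without Myocd-LSD1NF library 4 (adjusted p = 0.0297), without Myocd-LSD1 library 2, 3 or 4 (0.0424, 0.0309 and 0.0466) and in PDGF-BB and control alone (0.00329). With 1 library left out its adjusted p reached 0.138. Myocd-LSD1 differed from PDGF-BB by -0.43 ± 0.21 (adjusted p = 0.131), and by -0.59 without Myocd-LSD1 library 3 (adjusted p = 0.0320). Without Myocd-LSD1 library 2 it differed by -0.30, and with 1 library left out the adjusted p reached 0.328.

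Lamb2, the beta 2 chain that is prominent in the vessel wall, stood at 200.3, 206, 130.0 and 273 TPM in Myocd-LSD1, at 162, 147, 142 and 203 TPM in Myocd-LSD1NF, at 113, 78.6 and 73.1 TPM in PDGF-BB, and at 133, 175, 134 and 151 TPM in control. The 3 PDGF-BB libraries were below every other library. The other groups overlapped.

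Lamb2 averaged 88.3 ± 21.7 TPM in PDGF-BB, against 148 ± 19.5 TPM in control, a fall of 0.76 ± 0.21 on the log2 scale (adjusted p = 0.0168). The call was lost without PDGF-BB library 2 or 3 (adjusted p = 0.0696 and 0.0844) and with no filter on low genes (0.0752). At 202 ± 58.6 TPM, Myocd-LSD1 was above PDGF-BB by a log2 fold change of 1.17 ± 0.21 (adjusted p = 0.000900) and differed from control by 0.41 ± 0.20 (adjusted p = 0.136). Without Myocd-LSD1 library 3, the lowest of its group, the difference from control was 0.60 and was called (adjusted p = 0.0147). Without Myocd-LSD1 library 4, the highest, it was 0.25, and with 1 library left out the adjusted p reached 0.368. Myocd-LSD1NF differed from control by 0.14 ± 0.20 (adjusted p = 0.795).

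The beta chains stood in different proportions, Lamb3 left out. Lamb1 made up 40.5%, 29.3%, 54.7% and 24.5% of the summed Lamb1 and Lamb2 TPM in Myocd-LSD1 and 59.2%, 61.5%, 58.6% and 41.3% in Myocd-LSD1NF. It made up 55.7%, 65.2% and 69.8% in PDGF-BB and 62.4%, 56.9%, 60.7% and 62.1% in control. Lamb2 was the more abundant of the pair in 3 Myocd-LSD1 libraries and in Myocd-LSD1NF library 4, and Lamb1 in the rest. The sum of both was lowest in PDGF-BB, at 241 ± 14.7 TPM, against 375 ± 31.7 TPM in control. No test was made of these ratios.

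**Figure D3:**
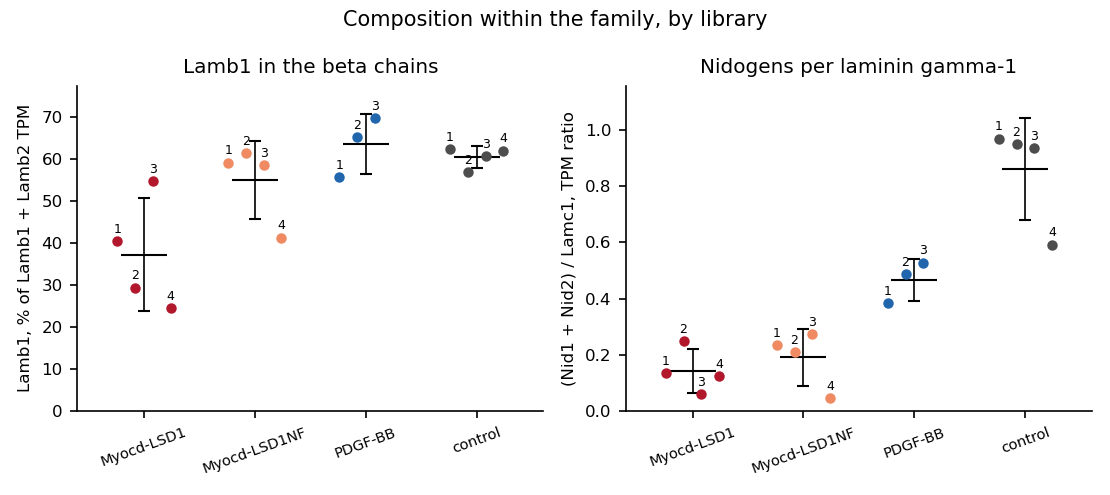
Lamb1 as a percentage of Lamb1 + Lamb2 TPM (left, vertical axis) and the ratio of summed Nid1 and Nid2 TPM to Lamc1 TPM (right, vertical axis), with 1 numbered point per library in the 4 groups and bars for mean ± SD. The Lamb1 share lies at 54.7% or below in Myocd-LSD1 and at 55.7% or above in PDGF-BB, and the nidogen ratio is 0.592 or above in control and 0.528 or below elsewhere.

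Lamc1, the gamma 1 chain, stood at 332, 290.2, 267 and 322 TPM in Myocd-LSD1, at 414, 379.8, 265 and 412 TPM in Myocd-LSD1NF, at 337, 345 and 395 TPM in PDGF-BB, and at 232, 243, 197 and 386 TPM in control. Control library 4 was as high as most libraries of the other groups, and the remaining 3 controls were below every other library.

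In the fit over all libraries Lamc1 was not called in any comparison. The log2 fold changes against control were 0.24 ± 0.18 in Myocd-LSD1, 0.50 ± 0.18 in Myocd-LSD1NF and 0.48 ± 0.20 in PDGF-BB (adjusted p = 0.364, 0.195 and 0.0833). Without control library 4 they were 0.43, 0.69 and 0.68 and all were called (adjusted p = 0.0416, 0.0274 and 0.00853). Without control library 3 they were 0.11, 0.37 and 0.36. With 1 library left out the adjusted p reached 0.715, 0.400 and 0.235. Myocd-LSD1 differed from Myocd-LSD1NF by -0.26 ± 0.18 (adjusted p = 0.299).

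Lama5, the alpha 5 chain, stood at 153, 133, 102 and 145 TPM in Myocd-LSD1, at 219, 237, 135 and 175 TPM in Myocd-LSD1NF, at 106, 114 and 97.0 TPM in PDGF-BB, and at 123, 162, 105 and 199.8 TPM in control. All groups overlapped the controls, the PDGF-BB libraries lying at the low end of them. Lama5 was not called in any comparison. Its log2 fold change was -0.50 ± 0.20 in Myocd-LSD1 against Myocd-LSD1NF (adjusted p = 0.0728), which became a call without Myocd-LSD1NF library 3 (-0.66, adjusted p = 0.0260), without control library 4 (adjusted p = 0.0491) or under median-of-ratios scaling (-0.59, adjusted p = 0.0290). Without Myocd-LSD1 library 3 it was -0.38, and with 1 library left out the adjusted p reached 0.193. Against control the log2 fold changes were -0.12 ± 0.20 in Myocd-LSD1, 0.39 ± 0.20 in Myocd-LSD1NF and -0.43 ± 0.22 in PDGF-BB.

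Lama4, the alpha 4 chain, was scarce. It stood at 0.41, 0.10, 0.15 and 0.03 TPM in Myocd-LSD1, at 1.59, 1.5, 0.92 and 0.02 TPM in Myocd-LSD1NF, at 0.74, 0.28 and 0.12 TPM in PDGF-BB, and at 0.73, 0.34, 0.86 and 1.56 TPM in control. The 3 libraries at or above 1 TPM were Myocd-LSD1NF libraries 1 and 2 and control library 4. Lama5 made up at least 98.3% of the TPM of the alpha chain genes in every library. Lama4 was not called in any comparison over all libraries. It passed the filter on low values only through Myocd-LSD1NF and control libraries, so nothing is read from its test.

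The ratio of Lamc1 to Lama5 TPM was 2.30 ± 0.214 in Myocd-LSD1 and 1.95 ± 0.313 in Myocd-LSD1NF. It was 3.42 ± 0.566 in PDGF-BB, against 1.80 ± 0.200 in control. Every PDGF-BB ratio (3.02 to 4.07) was above every control ratio (1.504 to 1.93). In control the main laminin genes were Lamc1, Lamb1, Lamb2 and Lama5, in that order of mean TPM. In Myocd-LSD1 the order was Lamc1, Lamb2, Lama5 and Lamb1.

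**Figure D4:**
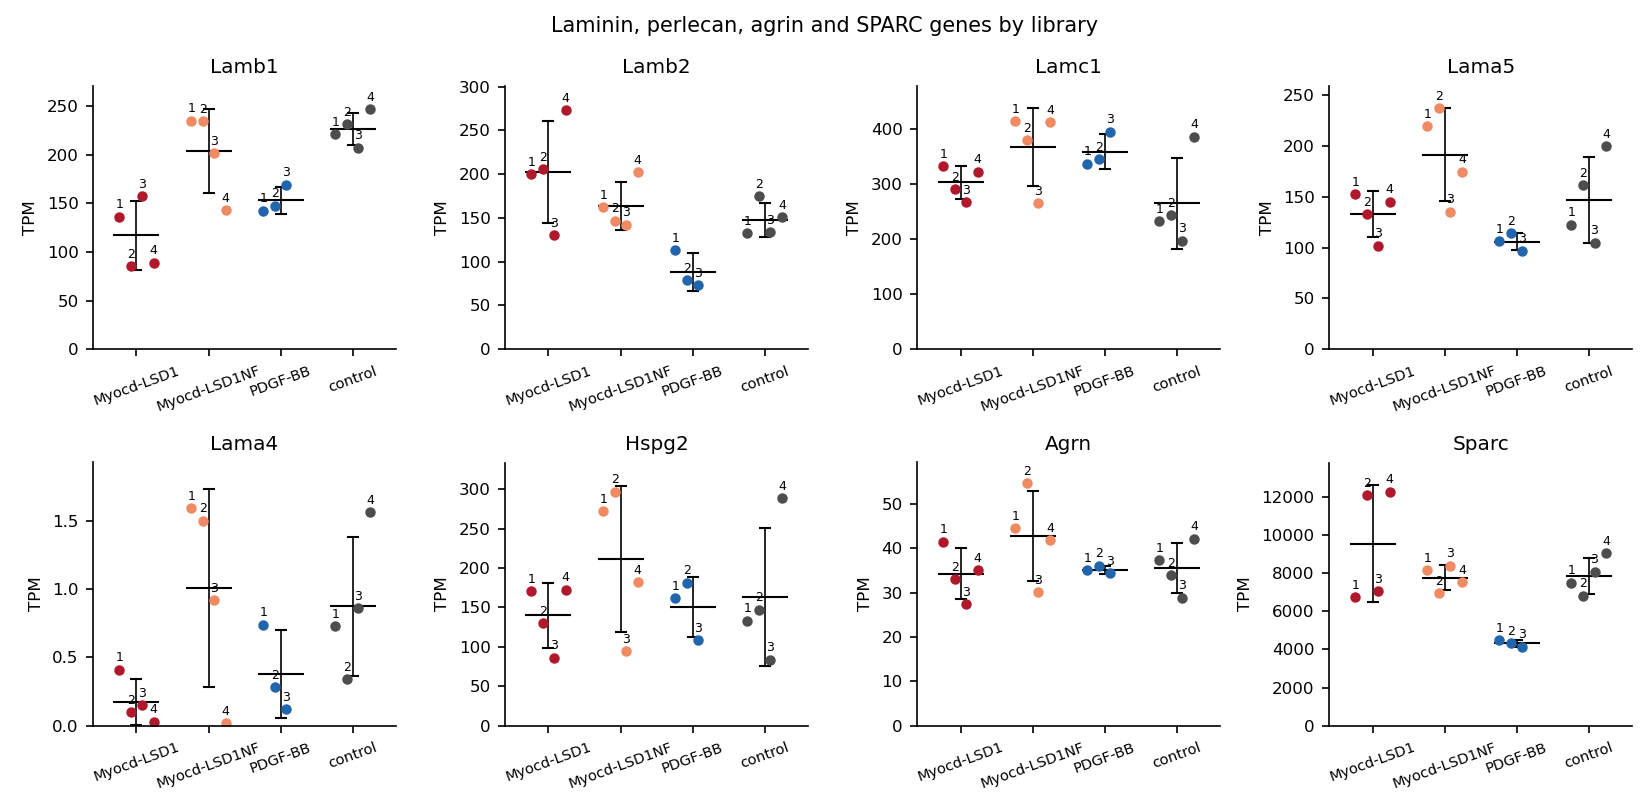
TPM (vertical axes, starting at 0) of the laminin genes Lamb1, Lamb2, Lamc1, Lama5 and Lama4, of Hspg2, Agrn and Sparc in the 4 groups, with 1 numbered point per library and bars for mean ± SD. Lamb2 and Sparc are lowest in the 3 PDGF-BB libraries, Lamb1 is below every control in Myocd-LSD1 and PDGF-BB, and library 3 is the lowest point of each group in Lama5, Hspg2 and Agrn.

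The 2 proteoglycan genes were not called in any comparison. Hspg2, perlecan, stood at 171, 129.8, 86.4 and 173 TPM in Myocd-LSD1, at 272, 297, 94.4 and 182 TPM in Myocd-LSD1NF, at 162, 181 and 109 TPM in PDGF-BB, and at 133, 147, 83.7 and 289 TPM in control. The groups overlapped in every pairing. The 95% interval of its log2 fold change against control ran from -0.95 to 0.69 in Myocd-LSD1, from -0.43 to 1.203 in Myocd-LSD1NF and from -0.89 to 0.88 in PDGF-BB. These intervals leave room for changes near 2-fold in at least 1 direction.

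Agrn, agrin, which also gathers receptors at the nerve and muscle synapse, stood at 41.5, 33.0, 27.5 and 35.0 TPM in Myocd-LSD1, at 44.5, 54.6, 30.1 and 41.8 TPM in Myocd-LSD1NF, at 35.0, 36.1 and 34.35 TPM in PDGF-BB, and at 37.3, 34.0, 28.9 and 42.2 TPM in control. All groups overlapped. The 95% interval of its log2 fold change against control ran from -0.41 to 0.30 in Myocd-LSD1, from -0.11 to 0.59 in Myocd-LSD1NF and from -0.38 to 0.38 in PDGF-BB. Without Myocd-LSD1NF library 3 it was called lower in Myocd-LSD1 than in Myocd-LSD1NF (-0.45, adjusted p = 0.0380). Without Myocd-LSD1NF library 2 that difference was -0.17, and with 1 library left out the adjusted p reached 0.463.

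Lama5, Hspg2 and Agrn shared a pattern across libraries that the groups do not give. In each of the 4 groups, library 3 was the lowest for all 3 genes. Lamc1 had its lowest value in library 3 of Myocd-LSD1, Myocd-LSD1NF and control, and Lamb2 in library 3 of Myocd-LSD1, Myocd-LSD1NF and PDGF-BB. The labels do not say what a library number stands for.

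Sparc encodes a secreted protein that binds collagen and calcium and is found in basement membranes and remodelling matrix. It was by far the most abundant of the 10 genes. It stood at 6732, 12076, 7045 and 12256 TPM in Myocd-LSD1, at 8152, 6953, 8375 and 7509 TPM in Myocd-LSD1NF, at 4467, 4323 and 4132 TPM in PDGF-BB, and at 7483, 6809.5, 8074 and 9051 TPM in control. The 3 PDGF-BB libraries were below every other library, and Myocd-LSD1 libraries 2 and 4 were above every other.

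Sparc averaged 4307 ± 168 TPM in PDGF-BB, against 7854 ± 950.3 TPM in control, a fall of 0.86 ± 0.22 on the log2 scale (adjusted p = 0.0105). Under quantile normalization the fall was 0.47 and was not called (adjusted p = 0.0580), nor was it called with no filter on low genes (0.117). Myocd-LSD1, at 9527 ± 3051 TPM, was above PDGF-BB by a log2 fold change of 1.09 ± 0.22 (adjusted p = 0.00184), and by 0.68 without Myocd-LSD1 libraries 2 and 4 (adjusted p = 0.0272). Against control, Myocd-LSD1 differed by 0.23 ± 0.21 (adjusted p = 0.436), and by -0.18 without those libraries. Myocd-LSD1NF differed from control by -0.02 ± 0.21, and by 0.037 under median-of-ratios scaling.

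Around the 10 genes, further basement membrane genes were read from 7 lists. Of all tested genes, 16.9% were called higher and 15.4% lower in Myocd-LSD1 against control, 0.475% and 1.74% in Myocd-LSD1NF against control, and 19.1% and 12.7% in Myocd-LSD1 against Myocd-LSD1NF. The shares were 19.2% higher and 8.5% lower in PDGF-BB against control, and 10.6% and 20.5% in Myocd-LSD1 against PDGF-BB. The lists were not tested as sets, and nothing is called particular to a list from its count. Among other laminin chain genes, Lamb3, the beta 3 chain found in epithelial laminin, stood at 12.1 ± 8.47 TPM in Myocd-LSD1, against 0.515 ± 0.997 TPM in Myocd-LSD1NF, 0.470 ± 0.0529 TPM in the PDGF-BB group and 0.122 ± 0.0330 TPM in control. The lowest Myocd-LSD1 library stood at 3.17 TPM and the highest Myocd-LSD1NF library at 2.01 TPM. Lamb3 passed the filter on low values only through Myocd-LSD1, so these levels are given with no test. Beside Lamb3, 4 of 10 epithelial and mesothelial markers reached 1 TPM in a Myocd-LSD1 library. Msln averaged 95.7 ± 81.8 TPM in Myocd-LSD1, against 2.19 ± 1.59 TPM in control, and Krt8 41.1 ± 14.7 TPM in Myocd-LSD1, against 19.2 ± 3.76 TPM in control. In PDGF-BB, Krt8 was about as high as in Myocd-LSD1, at 40.4 ± 9.21 TPM, and Msln averaged 2.68 ± 0.410 TPM. Upk3b went the other way, at 11.4 ± 9.63 TPM in Myocd-LSD1, against 23.0 ± 7.05 TPM in control (log2 fold change -1.28 ± 0.45, adjusted p = 0.0413), and Wt1 was listed at 0 in every library. The part of these markers in the Lamb3 levels was not tested.

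Of 6 tested collagen IV, XV and XVIII chains, the collagens to which laminin is tied, 5 fell and 1 rose in Myocd-LSD1 against control (median -1.13), beside 15.4% lower and 16.9% higher of all tested genes. Col4a1, a chain of the main type IV collagen, averaged 466 ± 69.1 TPM in Myocd-LSD1, against 886 ± 194 TPM in control. On the log2 scale Col4a6 fell by 3.12 ± 0.41 and Col18a1, the endostatin precursor, rose by 0.88 ± 0.21 (adjusted p = 4.19e-05 and 0.00394). In PDGF-BB against control 2 rose and 3 fell (median -0.20): Col15a1 rose by 2.24 ± 0.42 and Col18a1 by 2.13 ± 0.22, while Col4a1 fell by 0.76 ± 0.17. In Myocd-LSD1NF against control 1 rose, Col18a1, and none fell. In Myocd-LSD1 none rose and 5 fell against Myocd-LSD1NF, and none rose and 4 fell against PDGF-BB.

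Of 14 accessory proteins, 2 rose and 9 fell in Myocd-LSD1 against control (median -0.88), beside 16.9% higher and 15.4% lower of all tested genes. None rose and 3 fell in Myocd-LSD1NF against control, and none rose and 5 fell in PDGF-BB against control (median -0.46), beside 19.2% and 8.5% of all tested genes. Postn, periostin, averaged 275 ± 143 TPM in Myocd-LSD1, against 8567 ± 2473 TPM in control, and Tinagl1, an integrin-binding matrix protein, averaged 12.9 ± 14.1 TPM in Myocd-LSD1, against 160.0 ± 8.89 TPM in control. Frem1 went the other way in Myocd-LSD1 against control, with a log2 fold change of 3.11 ± 0.502 (adjusted p = 0.000227). Fbln1, fibulin 1, which binds nidogen, fell by 3.16 ± 0.45 in Myocd-LSD1NF against control (adjusted p = 0.00147). In Myocd-LSD1, 4 rose and 8 fell against Myocd-LSD1NF, and 2 rose and 5 fell against PDGF-BB.

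The list of receptors for laminin, nidogen and perlecan, with 24 genes tested, also holds proteins that work with receptors or bind other matrix. Among these are Dmd, Utrn, Cd151, Ddr1 and Ddr2. Of the 24, 2 rose and 11 fell in Myocd-LSD1 against control (median -0.51), Dmd and Utrn among those that fell. Of all tested genes 16.9% were called higher and 15.4% lower. Itga1, an integrin chain that binds collagen IV and laminin, averaged 16.7 ± 10.4 TPM in Myocd-LSD1, against 103 ± 22.1 TPM in control. Gpc1 went the other way in Myocd-LSD1 against control, with a log2 fold change of 1.17 ± 0.25 (adjusted p = 0.00215). Bcam, a receptor of laminin alpha 5, fell by 3.34 ± 0.51 in Myocd-LSD1, by 2.32 ± 0.51 in Myocd-LSD1NF and by 2.04 ± 0.55 in PDGF-BB, each against control (adjusted p = 0.000150, 0.0290 and 0.0139). None rose and 2 fell in Myocd-LSD1NF against control, and 5 rose and 4 fell in PDGF-BB against control (median -0.15), beside 19.2% and 8.5% of all tested genes. In Myocd-LSD1, 3 rose and 8 fell against Myocd-LSD1NF, and 2 rose and 7 fell against PDGF-BB.

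Of 22 heparan sulfate enzymes, which build and edit the chains of perlecan and agrin, 10 rose and 4 fell in Myocd-LSD1 against control (median 0.30), beside 16.9% higher and 15.4% lower of all tested genes. Hpse, heparanase, which cuts those chains, averaged 91.1 ± 26.1 TPM in Myocd-LSD1, against 1.38 ± 0.701 TPM in control, and Hs6st1, a sulfotransferase, averaged 16.4 ± 8.42 TPM in Myocd-LSD1, against 75.0 ± 10.9 TPM in control. By limma none was called in Myocd-LSD1NF against control (4 at an unadjusted p under 0.05), and 7 rose and 2 fell in PDGF-BB against control (median 0.29), beside 19.2% and 8.5% of all tested genes. Hs6st1 fell by 1.82 ± 0.31 in PDGF-BB. In Myocd-LSD1, 7 rose and 5 fell against Myocd-LSD1NF, and 5 rose and 7 fell against PDGF-BB.

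Of 16 proteases and inhibitors, 6 rose and 3 fell in Myocd-LSD1 against control (median 0.39), beside 16.9% higher and 15.4% lower of all tested genes. By limma 0 were called in Myocd-LSD1NF against control (4 at an unadjusted p under 0.05), and 5 rose and 4 fell in PDGF-BB against control (median 0.16), beside 19.2% and 8.5% of all tested genes. Timp1, an inhibitor of matrix metalloproteinases, rose by 2.01 ± 0.26 in Myocd-LSD1 and by 1.75 ± 0.28 in PDGF-BB. The largest called changes of this list in Myocd-LSD1 against control were falls, those of Tll1 and Timp3. Their log2 fold changes were -3.81 ± 0.46 and -3.301 ± 0.998 (adjusted p = 1.86e-05 and 0.0196). Adamts1, a matrix protease, fell by 1.94 ± 0.21 in PDGF-BB. In Myocd-LSD1, 4 rose and 3 fell against Myocd-LSD1NF, and 6 rose and 2 fell against PDGF-BB.

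Of 15 folding and transport genes of the secretory pathway, 10 rose and 1 fell in Myocd-LSD1 against control (median 0.50), beside 16.9% higher and 15.4% lower of all tested genes. P4ha2, a collagen prolyl hydroxylase, rose by 1.11 ± 0.12, and Plod2, a lysyl hydroxylase, fell by 0.79 ± 0.10. Limma called 0 in Myocd-LSD1NF against control (4 at an unadjusted p under 0.05), and 1 rose and 2 fell in PDGF-BB against control (median -0.02), beside 19.2% and 8.5% of all tested genes. In Myocd-LSD1, 9 rose and 1 fell against Myocd-LSD1NF, and 8 rose and none fell against PDGF-BB.

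**Figure D5:**
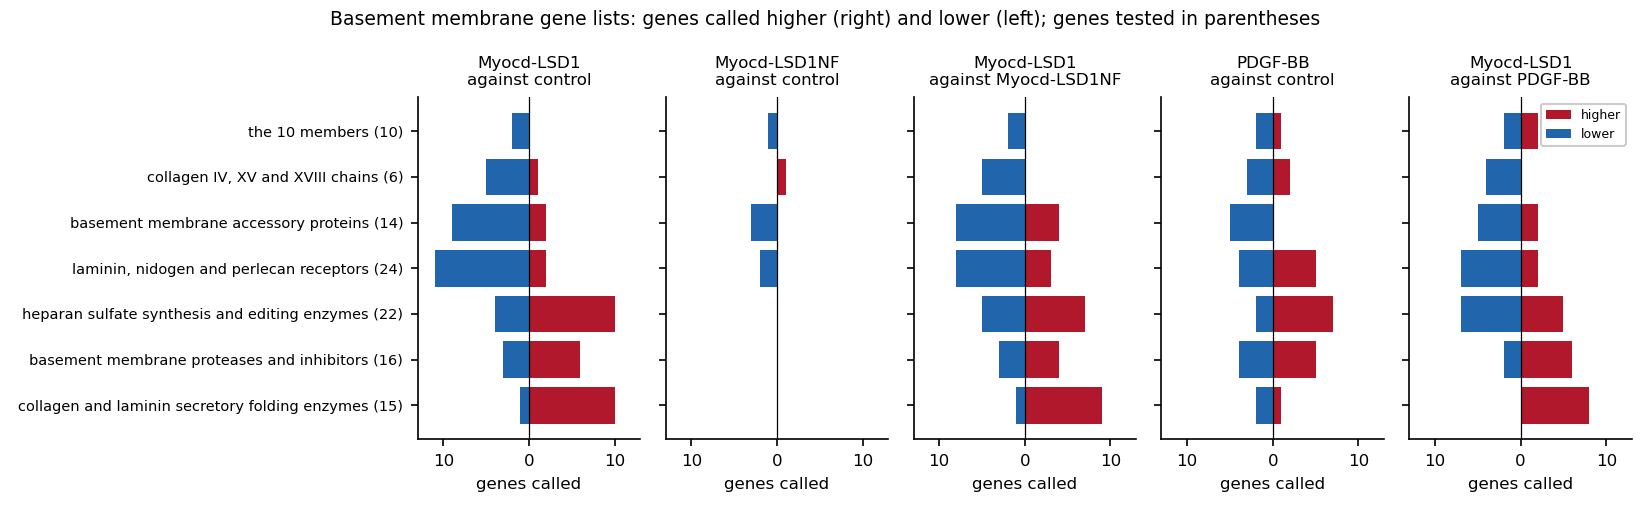
Number of genes called (horizontal axis) higher, to the right in red, and lower, to the left in blue, in each of the 5 comparisons (panels) for the 10 genes followed here and 6 further basement membrane lists (rows, genes tested in parentheses). The panel of Myocd-LSD1NF against control holds few calls, as it does over all tested genes (0.475% higher and 1.74% lower, beside 16.9% and 15.4% in Myocd-LSD1 against control).

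The genes whose pattern was most like that of the nidogens were found by Pearson's r of log2(TPM + 1) over the 15 libraries, among 12206 other tested genes. The 15 points share groups, so r describes these libraries and carries no p. For Nid1 they were Runx1t1, a transcriptional corepressor (r = 0.984), Ube2q2l (0.978), Cd9, a tetraspanin of the cell surface (0.974), Fabp3, a fatty acid binding protein (0.971), and Myl9, a myosin light chain (0.965). In Myocd-LSD1NF library 4, Cd9 and Fabp3 were listed at 0, and Myl9 stood at 129 TPM, against 445 to 671 TPM in the other libraries of that line. These genes were picked for likeness to Nid1 over libraries that include this one, so their low levels there are no separate support.

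For Nid2 the likeness was weaker. The closest were Rims2, a presynaptic scaffold gene (r = 0.877), Vcan, the matrix proteoglycan versican (0.867), Rom1 (0.862), Reep3 (0.858) and Pdxk, pyridoxal kinase (0.849). Vcan stood at 85.3, 101 and 126 TPM in the 3 PDGF-BB libraries, against 11.9, 5.17, 7.50 and 20.3 TPM in control. It was picked for likeness to Nid2 over the same libraries, so these levels are no separate support.

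The tested genes next to Nid1 in RefSeq order on rat chromosome 17, all on 1 side of it, were Yme1l1, Ero1b and Gpr137b. None of them was called in any of the 5 comparisons, and in Myocd-LSD1 against control their log2 fold changes were -0.06, -0.35 and -0.24 beside the -7.43 of Nid1. Of the 6 tested neighbours of Lamb1, Tmem18 and Bcap29 were called lower in Myocd-LSD1 against control, at -0.35 and -0.50 on the log2 scale (adjusted p = 0.0163 and 0.0478). Of all tested genes, 15.4% were called lower there. Tmem18 was also called lower in PDGF-BB against control (-0.37, adjusted p = 0.0208) and stood at -0.39 in Myocd-LSD1NF (adjusted p = 0.0627). Acp1 was called higher in PDGF-BB against control (0.34, adjusted p = 0.0306). No local pattern is read from these calls.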

How the data were processed

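Polyadenylated RNA of 15 libraries was sequenced after RNeasy extraction with DNase I and TruSeq Stranded mRNA preparation, per the labels' protocols. The authors deposited TPM, in 1 table of 32623 entries. Aligner, counter, genome build and annotation were not stated in the sources used here. TPM keep no depth, so no counting interval was made. The table's 4 columns of group means were not used. Groups were taken from sample titles.

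Entries with at least 1 TPM in at least 3 libraries were kept (12207 kept, 20416 left out), and log2(TPM + 1) was fitted with limma 3.58.1 in R 4.3.3, with 1 mean per group, all 15 libraries, eBayes with trend and Benjamini-Hochberg adjustment over all tested entries in each of 5 comparisons. The procedure was tested on simulated data. Numbers shared between groups were not taken as pairs. All members were named, and from the other lists up to 3 called genes of largest fold change and 1 moving the other way, of which not all are given, and the 5 genes most like each nidogen. Col4a1, Msln, Krt8, Upk3b and Wt1 were chosen after their values were seen, and Utrn was also named outside that rule. Members, lists and the pair of Myocd-LSD1 libraries left out together were chosen with earlier results of these data known. Alternatives were 2 pseudocounts, 2 filters, 2 scalings, a replicate block, array weights, fitting only the groups compared, and leaving out libraries. List genes not matched by symbol were not used here, and 1 list gene is not reported here. Promoter windows came from RefSeq (GRCr8). Plots were made with Python 3.11.15 and matplotlib 3.10.9.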

Additional observations from a re-analysis of the deposited data

Results flagged for a closer look

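Nid1 in Myocd-LSD1NF library 4 stood far from the other libraries of its line on the log2(TPM + 1) scale. Its value was 0.722, and its gap to the nearest library was 0.912 of the range of the group, above Dixon's 95% critical value for 4 samples. On the TPM scale no library of the 10 genes passed that value. Of 30 combinations of gene and group examined on each scale this was the single one to pass, and chance passes about 1 in 20.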

How the results depend on the processing

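The number of the 10 genes called was kept within 1.5 times under most alternatives, and the exceptions follow. The cause of each was not tested. With array weights it was 6 in Myocd-LSD1 against control, 6 in Myocd-LSD1 against Myocd-LSD1NF, 3 in Myocd-LSD1NF against control and 6 in PDGF-BB against control, beside 2, 2, 1 and 3. In Myocd-LSD1NF against control it was 0 with a pseudocount of 0.1, with no filter and in the compared groups alone. In PDGF-BB against control it was 1 with no filter, 5 with the replicate block and 5 in the compared groups alone. Without Myocd-LSD1 libraries 2 and 4 it was 1 in Myocd-LSD1 against Myocd-LSD1NF. Leaving out 1 library gave 2 to 4 in Myocd-LSD1 against control, 2 to 4 against Myocd-LSD1NF, 3 to 4 against PDGF-BB, 0 to 1 in Myocd-LSD1NF against control and 2 to 5 in PDGF-BB against control.

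Over all genes, the 270 calls of Myocd-LSD1NF against control became 139 with no filter, 110 with only genes averaging at least 5 TPM, 919 with array weights, 176 in the compared groups alone, and 109 to 312 with 1 library left out. The 3792 of Myocd-LSD1 against PDGF-BB became 2242 without Myocd-LSD1 libraries 2 and 4 (2859 to 3986 with 1 library left out), and the 3384 of PDGF-BB against control became 2137 to 3589 with 1 library left out. Median-of-ratios scaling changed the split of calls: 1685 higher and 1750 lower beside 2347 and 1037 in PDGF-BB against control, 2033 and 2141 beside 2331 and 1546 in Myocd-LSD1 against Myocd-LSD1NF, 1903 and 2021 beside 1295 and 2497 in Myocd-LSD1 against PDGF-BB, and 108 and 207 beside 58 and 212 in Myocd-LSD1NF against control.

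No called difference of the 10 genes changed direction. Differences that were not called did so in these cases, as log2 fold changes. Agrn was 0.061 (median-of-ratios) and 0.020 (quantile) in Myocd-LSD1 against PDGF-BB, and 0.029 with the replicate block in PDGF-BB against control. Hspg2 was 0.011 with array weights in Myocd-LSD1 against control, and 0.13 with the replicate block and 0.19 with array weights in PDGF-BB against control. Lama4 was 0.011 (quantile) in Myocd-LSD1 against PDGF-BB and -0.20 (pseudocount 0.1) in Myocd-LSD1NF against control. Without Myocd-LSD1 libraries 2 and 4, Myocd-LSD1 against Myocd-LSD1NF gave -0.00494 for Lamb2, -0.30 for Nid2 and -0.17 for Sparc, and Myocd-LSD1 against control gave -0.18 for Sparc. Sparc in Myocd-LSD1NF against control was 0.037 (median-of-ratios), 0.064 (quantile) and 0.024 (array weights). With 1 library left out, Agrn spanned -0.15 to 0.042 in Myocd-LSD1 against control, -0.15 to 0.046 against PDGF-BB and -0.097 to 0.080 in PDGF-BB against control. Hspg2 spanned -0.40 to 0.19, -0.34 to 0.088 and -0.28 to 0.31 in the same order. Lama4 spanned -0.10 to 0.35 and Sparc -0.082 to 0.055 in Myocd-LSD1NF against control, Lama5 -0.26 to 0.045 in Myocd-LSD1 against control, and Nid2 -0.12 to 0.59 in Myocd-LSD1 against Myocd-LSD1NF.

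The labels do not say that equal library numbers mark a shared culture or day, so the replicate block was kept as an alternative. Deviations of same-numbered libraries correlated at -0.23 to 0.58, above 0.1 in 11 of 21 pairs, beside 14 of 63 pairs of different number, and 7 of 15 libraries were most like one of their own number. Whether some numbers mark a shared source was not settled by these values. With the replicate block, Lama5 was called in Myocd-LSD1 against Myocd-LSD1NF (-0.50, adjusted p = 0.0198), Lamb1 and Lamc1 in PDGF-BB against control (-0.64 and 0.58, adjusted p = 0.0327 and 0.0208), and Nid2 was no longer called in Myocd-LSD1 against PDGF-BB (adjusted p = 0.0716). TPM keep no depth, so low values such as those of Lama4 have no known counting error.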
